A study of Mus musculus with 2 samples.

Results

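MHC class I molecules carry peptides from inside a cell to its surface, where T cells and NK cells read them. Each molecule has a heavy chain, encoded by the H2-K, H2-D, H2-Q and H2-T genes of the mouse, and the light chain β2-microglobulin. Peptides cut by the proteasome are pumped into the endoplasmic reticulum by the TAP transporter and loaded with the help of tapasin. Interferons are known to raise most genes of the pathway.

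The 10 genes described here were given by name and looked up by symbol among the 32285 genes of the files. They were 7 heavy chain genes (H2-K1, H2-D1, H2-Q4, H2-Q6, H2-Q7, H2-T22 and H2-T23), B2m for the light chain, Tap1 for 1 chain of the transporter and Tapbp for tapasin. All 10 had UMIs (unique molecular identifiers, 1 for each captured transcript) in the kept cells. H2-K1 and H2-D1 encode the classical heavy chains of C57BL/6 mice. The Q and T genes encode nonclassical chains, among them Qa-2 from H2-Q7 and Qa-1 from H2-T23.

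Single-cell RNA sequencing was made of neutrophils enriched from the blood of female mice 7 months old. One library came from WT mice and 1 from APP/PS1 transgenic mice, a model of Alzheimer's disease amyloidosis that carries mutant transgenes for the amyloid precursor protein and presenilin 1, and each library pooled 3 mice. The promoters that drive the transgenes were not given in the sources used here. Pooling left 1 library per genotype. No test of a difference between genotypes was possible, and no result below separates genotype from library. Intervals are 95% intervals and cover counting error only.

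The files held 17123 WT and 17645 APP/PS1 barcodes with 92458623 and 84870864 UMIs, and 83 barcodes occurred in both. Filtering kept 14564 WT and 15208 APP/PS1 cells. Although the libraries were labelled neutrophils, only 12294 of the 29772 kept cells fell in clusters that carried neutrophil markers alone (5715 WT, 6579 APP/PS1). Another 1879 WT and 3027 APP/PS1 cells carried neutrophil genes with platelet genes and were kept apart. Monocytes, NK cells, T cells, B cells, plasma cells, basophils and erythroid cells made up the other named types, for 12 types in all, and 1932 cells were mixed or could not be named. Levels are given in CPM, the UMIs of a gene per 1000000 UMIs of the cells of that type and library. Each transcript was counted by its 3′ end, so levels of different genes were compared without dividing by length.

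All members except B2m lie on chromosome 17 (mm10), in the H2 region. H2-K1 lies at chr17:33996017-34000347 on the minus strand, H2-D1 at chr17:35262730-35267499 on the plus strand, and the Q and T genes lie beyond H2-D1. The heavy chain genes resemble each other, which can leave reads that match 2 genes equally well. Of all 100-base windows in the last 600 bases of the annotated protein-coding transcripts, no window of H2-K1, H2-D1, B2m, Tap1 or Tapbp was found in another gene. The share was 5.19% for H2-Q4, 10.0% for H2-Q7, 12.8% for H2-T23, 19.1% for H2-Q6 and 19.6% for H2-T22. The levels of these 5 genes are therefore less certain. H2-Q7 shared its windows with H2-Q6 and H2-Q5, and H2-T22 with H2-T10. H2-Q6 shared 16.6% of its windows with H2-Q7 and 3.09% with transcripts of H2-D1, which had 2999 CPM in WT neutrophils against 34.3 CPM of H2-Q6. H2-T23 shared 10 of its 501 windows with H2-D1. The matches in H2-D1 lay outside the last 600 bases of its protein-coding transcripts, since whole transcripts of every gene were searched.

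Promoter windows of all 10 genes were found in the RefSeq table of GRCm38.p6 and searched on both strands over the 250 bases before the RefSeq start site. That start can differ from the start of the gene span used for the coordinates above. For H2-D1, H2-T23 and Tapbp the window lay wholly or in large part inside that span. The motif matches below depend on this choice of start. The stretches below show the interferon-stimulated response element core, which interferon regulatory factors bind, and the kappaB core, which NF-κB binds. Each stretch has 30 bases, 5′ to 3′ on the gene's strand, with capitals marking the interferon core (GAAANNGAA or GAANNGAAA on either strand) and the kappaB core (GGGGATTCC). They are shown because the levels of these genes are read below against the interferon response of single neutrophils.
H2-K1: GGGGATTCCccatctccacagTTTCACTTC
H2-D1: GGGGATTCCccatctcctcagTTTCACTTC
H2-Q4: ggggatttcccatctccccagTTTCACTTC
H2-Q6: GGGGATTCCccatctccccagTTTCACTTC
H2-Q7: tGGGGATTCCcatctccccagTTTCACTTC
H2-T22: attggcttagtTTCACTTTCgaatccccaa
H2-T23: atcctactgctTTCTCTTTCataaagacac
B2m: tataagaacatGAAACTGAAaatgggaaag

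The stretch lies at chr17:34000429-34000458 for H2-K1, chr17:35262923-35262952 for H2-D1, chr17:35439021-35439050 for H2-Q7, chr17:36032806-36032835 for H2-T23 and chr2:122147537-122147566 for B2m. Compared with H2-K1, H2-D1 and H2-Q6 each differed at 1 of the 30 bases and H2-Q4 at 2. The core GAAANNGAA was in the windows of 3 members (H2-T22, H2-T23 and B2m) and of 7.16% of all 27025 promoters. The core with the gap 1 base earlier, GAANNGAAA, was added after the sequences were seen. It was in H2-K1, H2-D1, H2-Q4, H2-Q6 and H2-Q7 and in 6.34% of all promoters. The kappaB core was in H2-K1, H2-D1, H2-Q6 and H2-Q7 against 0.218% of all promoters. A cyclic AMP element core (TGACG) was in 7 members against 17.9%, and a CCAAT box in all 10 against 34.5%. The gamma-activated site TTCNNNGAA was in none of the members and in 7.18% of promoters. Tap1 and Tapbp held neither interferon core in this window.

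The whole 250-base window is given for H2-K1 (chr17:34000348-34000597, minus strand) and H2-T23 (chr17:36032702-36032951, minus strand), a classical and a nonclassical gene, with every motif match in capitals.
H2-K1: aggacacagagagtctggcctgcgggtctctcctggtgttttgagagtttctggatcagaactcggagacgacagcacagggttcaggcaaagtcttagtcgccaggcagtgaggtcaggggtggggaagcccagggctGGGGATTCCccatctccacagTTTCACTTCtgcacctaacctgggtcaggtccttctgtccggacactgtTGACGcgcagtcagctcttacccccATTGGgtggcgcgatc
H2-T23: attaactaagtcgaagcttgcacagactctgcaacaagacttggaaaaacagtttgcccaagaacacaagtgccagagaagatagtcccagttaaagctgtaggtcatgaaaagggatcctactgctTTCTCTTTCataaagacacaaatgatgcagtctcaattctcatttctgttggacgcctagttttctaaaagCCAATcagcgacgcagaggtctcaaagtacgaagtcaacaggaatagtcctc

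Neutrophils expressed class I mainly through H2-D1. The H2-D1 level was 2999 CPM (2972 to 3025) in WT and 3509 CPM (3483 to 3535) in APP/PS1 neutrophils, where it ranked 32 and 28 among all genes. H2-K1 stood at 688 and 800 CPM, at ranks 182 and 155. H2-D1 gave 71.5% of the UMIs of the 7 heavy chain members in WT and 71.0% in APP/PS1 neutrophils, and the H2-D1 to H2-K1 ratio was 4.36 (4.27 to 4.45) and 4.39 (4.31 to 4.46). The ratio was 1.75 and 1.85 in classical monocytes, 1.18 and 1.32 in nonclassical monocytes, 1.20 and 1.11 in B cells, 0.991 and 0.849 in CD8 T cells and 0.833 and 0.851 in NK cells. The neutrophils with platelet genes had a ratio of 4.48 and 4.53. Of the other types, erythroid cells came nearest at 3.34 and 3.60, followed by basophils at 2.61 and 3.23. S100a9, a neutrophil gene, was read at 22946 and 26137 CPM in erythroid cells and 9854 and 6902 CPM in basophils, against 96715 and 84126 CPM in neutrophils. CD8 T cells had 8374 and 8147 CPM of S100a9, B cells 6525 and 3350 CPM and plasma cells 18722 and 9891 CPM. Classical monocytes had 1158 and 1247 CPM and NK cells 1463 and 1528 CPM. The part of neutrophil RNA in the ratios and levels of the other types was not tested.

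**Figure D1:**
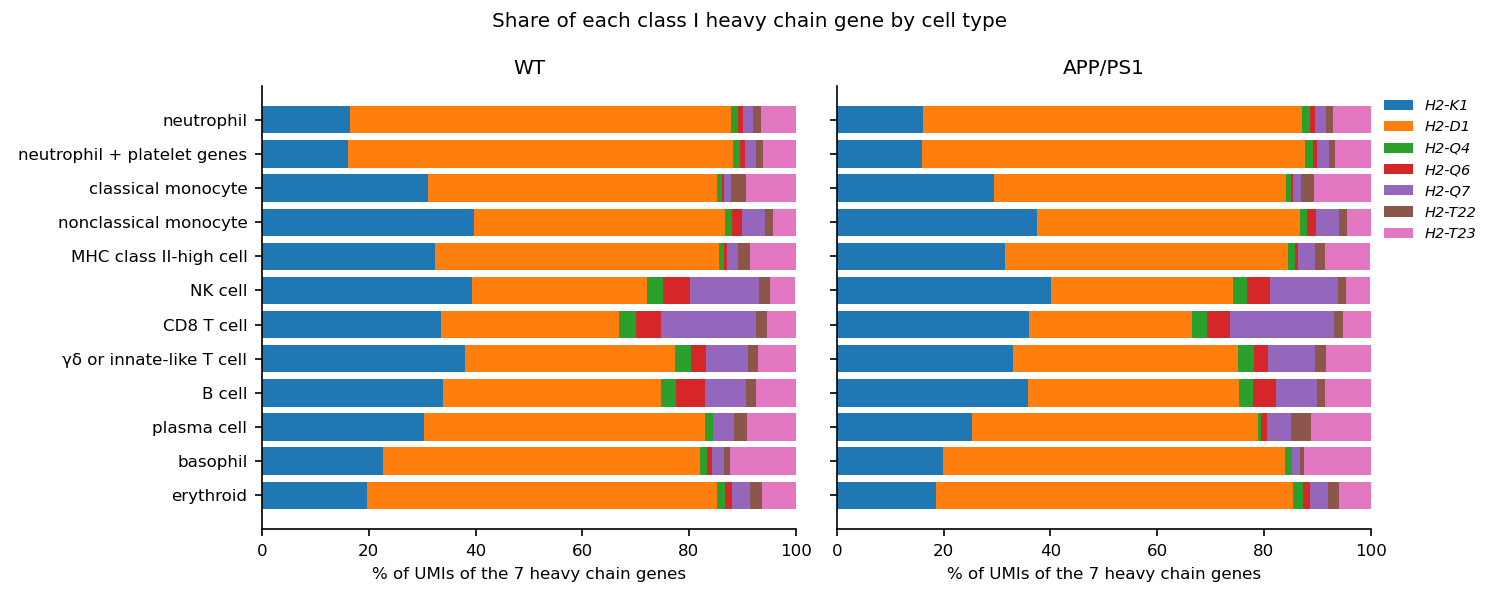
Share of each of the 7 class I heavy chain genes in their summed UMIs (percent, horizontal axis), by cell type, with 1 panel per library. H2-D1 takes over 70% in both neutrophil rows, and H2-Q7 its largest share, 17.8% and 19.4%, in CD8 T cells.

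H2-D1 was also the member for which neutrophils stood highest among the types by CPM. Counted per cell, neutrophils did not lead, with 8.62 and 10.7 UMIs of H2-D1. Classical monocytes had 12.6 and 13.6 and nonclassical monocytes 11.7 and 12.7 UMIs per cell. By CPM, the neutrophils with platelet genes had 3071 and 3476 of H2-D1, nonclassical monocytes 2607 and 2874, NK cells 2116 and 2253 and B cells 1448 and 1387. The intervals of neutrophils and nonclassical monocytes did not overlap in either library. For H2-K1 the order by CPM was the other way round. NK cells had 2541 and 2648 CPM, nonclassical monocytes 2205 and 2179 CPM and CD8 T cells 1960 and 2610 CPM, and in the APP/PS1 library only erythroid cells, plasma cells, basophils and the neutrophils with platelet genes had less H2-K1 than neutrophils.

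The Q genes were highest in CD8 T cells and NK cells in both libraries. H2-Q7 had 1037 and 1409 CPM in CD8 T cells and 837 and 838 CPM in NK cells, against 82.8 and 108 CPM in neutrophils and 38.2 and 51.6 CPM in classical monocytes. H2-Q6 had 319 and 283 CPM in NK cells, 282 and 316 CPM in CD8 T cells and 192 and 150 CPM in B cells, against 34.3 and 41.7 CPM in neutrophils. H2-Q4 had 193 and 175 CPM in NK cells against 56.3 and 72.7 CPM in neutrophils. CD8 T cells and NK cells did not differ beyond their intervals for H2-Q4 and H2-Q6 in either library. Not all lymphocytes stood apart from the myeloid cells. Nonclassical monocytes had 232 and 255 CPM of H2-Q7, near the 275 and 266 CPM of B cells, and 109 and 102 CPM of H2-Q6, which overlapped gamma-delta or innate-like T cells at 142 and 125 CPM. Plasma cells had 37.3 and 17.1 CPM of H2-Q4 and 0 and 28.6 CPM of H2-Q6.

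The T genes varied less between types. H2-T23 lay between 232 and 400 CPM in every type but erythroid cells (73.5 and 124 CPM), and neighbouring types in its order mostly had overlapping intervals. H2-T22 was at 60.3 and 63.5 CPM in neutrophils and at 124 and 98.7 CPM in NK cells.

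B2m was highest in nonclassical monocytes, at 4127 and 3999 CPM, apart from all other types. Neutrophils had 1688 and 1853 CPM, below both monocyte types, NK cells and CD8 T cells. Per UMI of the 7 heavy chain genes, B2m was read 0.403 and 0.375 times in neutrophils and 0.745 and 0.686 times in nonclassical monocytes. NK cells (0.384 and 0.360), CD8 T cells (0.397 and 0.338) and B cells (0.378 and 0.371) were near neutrophils in this ratio. Tap1 was at 81.7 and 98.5 CPM in neutrophils and at 124 and 119 CPM in classical monocytes. Tapbp was at 161 and 175 CPM in neutrophils and at 260 and 256 CPM in classical monocytes.

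**Figure D2:**
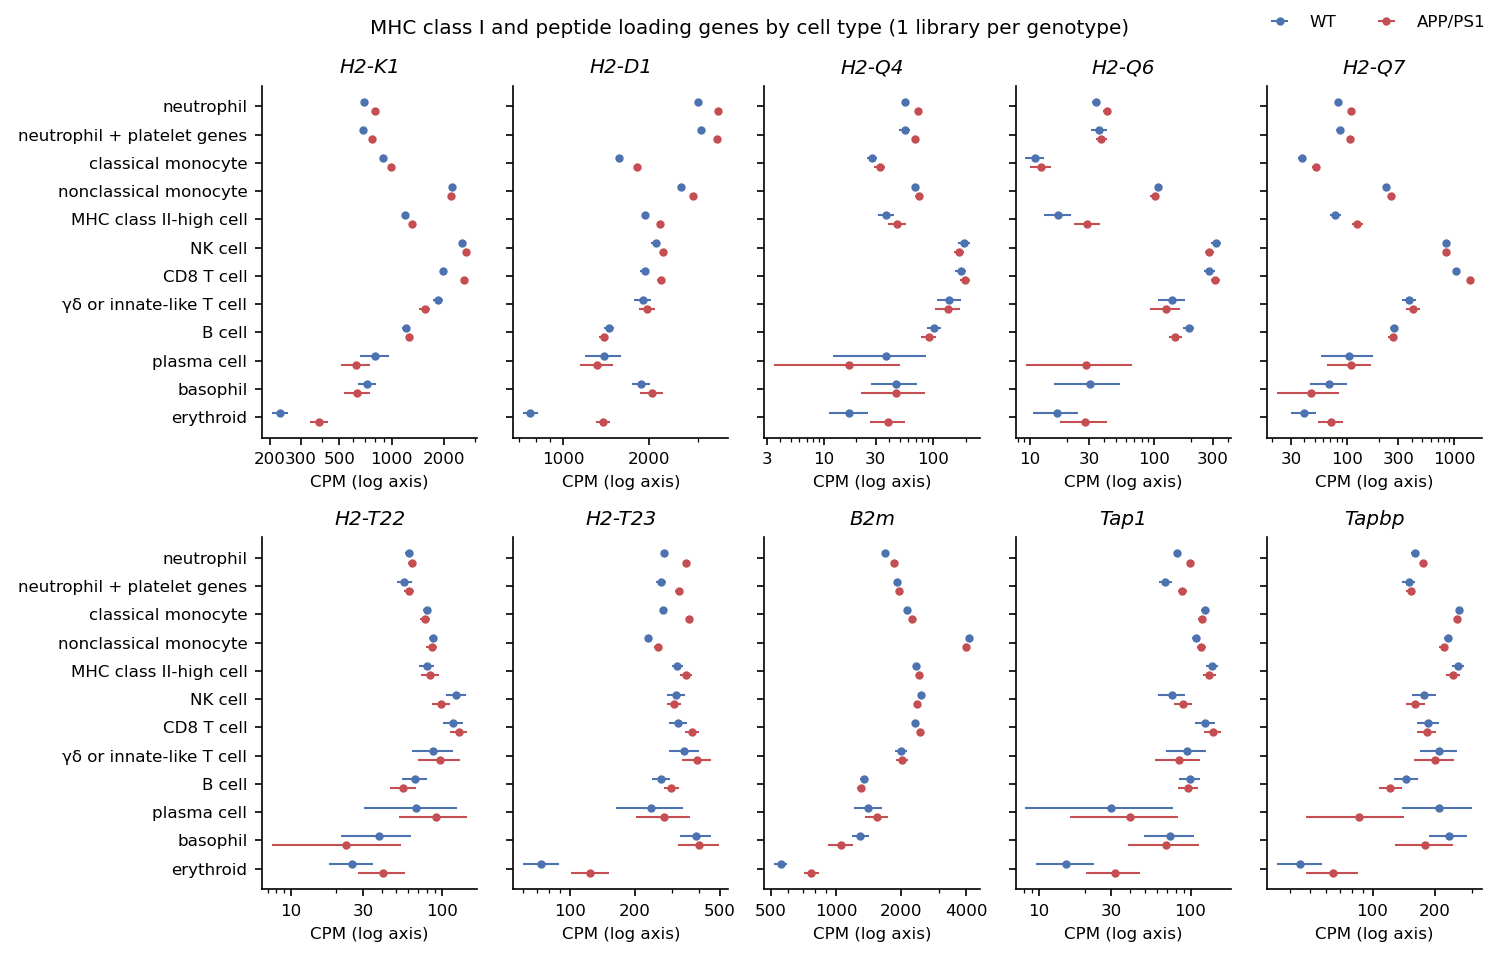
CPM of each member (log axis, horizontal) by cell type (rows) in the WT and APP/PS1 libraries, with 95% Poisson intervals as bars; a member with no UMI in a type has no point. Neutrophils lie at the right end for H2-D1 and toward the left for H2-K1, and the H2-Q genes lie furthest right in NK and CD8 T cells.

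Summed over the 10 members, nonclassical monocytes had 10008 and 10165 CPM, NK cells 9169 and 9227 CPM, CD8 T cells 8465 and 10018 CPM, and neutrophils 6124 and 7068 CPM. The order at the top depended on the processing: in the APP/PS1 library CD8 T cells came before nonclassical monocytes under 5 of the 8 alternatives tried. Neutrophils were shallow cells, at 2876 and 3040 UMIs per cell, so that a cell held 17.6 and 21.5 UMIs of the members. That compares with 43.3 and 44.5 UMIs in classical monocytes, 44.8 and 45.0 in nonclassical monocytes and 51.3 and 52.5 in the MHC class II-high cells, and neutrophils ranked 10 of the 12 types by this count.

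The pattern of each member over the 12 types and 2 libraries was set beside that of 12463 other genes, as a description over 24 points that share libraries, cells and depth. The genes most alike were Taf1 for H2-K1 (Pearson r of log2(CPM + 10) 0.957), Sin3b for H2-D1 (0.920), Fbxl12 for H2-Q4 (0.927), Sfi1 for H2-Q6 (0.901), Arap2 for H2-Q7 (0.918), Leng1 for H2-T22 (0.874), Cfl1 for H2-T23 (0.916), Ripk1 for B2m (0.946), Phf10 for Tap1 (0.942) and Tmed2 for Tapbp (0.947). H2-K1 and H2-D1 had r = 0.408 with each other, while H2-K1 and H2-Q7 had r = 0.829.

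The second question was how the members differed between the APP/PS1 and WT libraries. In neutrophils all 10 members had more CPM in the APP/PS1 library, and the interval of 9 of them lay above 0, as it did for 22.4% of all 8856 genes with at least 50 UMIs. The interval narrows with a gene's UMIs. The 5 largest differences were those of H2-Q7 (82.8 to 108 CPM, log2 0.38, 0.28 to 0.48), H2-Q4 (0.37, 0.25 to 0.49), H2-T23 (273 to 347 CPM, 0.35, 0.29 to 0.40), H2-Q6 (0.28) and Tap1 (0.27, 0.17 to 0.37). The intervals of these 5 overlapped, and H2-Q4 came before H2-Q7 without the percentile limits on cells (0.43 against 0.38). H2-D1 differed by 0.23 (0.21 to 0.24), H2-K1 by 0.22 (0.18 to 0.25), and B2m and Tapbp by 0.13 each. H2-T22 was the exception, with 0.07 and an interval that held 0 (-0.05 to 0.19), and it went to -0.02 with cells thinned to 1000 UMIs.

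These differences were small. None of the 10 members reached 0.5 on the log2 scale, which 6.53% of these genes did, and 5 reached 0.25, which 20.4% did. A higher level of any size was seen for 60.3% of genes. The median over the members was 0.25, and 0.06 over all genes. With WT and APP/PS1 levels scaled to each other by the median gene, 3 members reached 0.25 and their sum differed by 0.15 in place of 0.21.

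**Figure D3:**
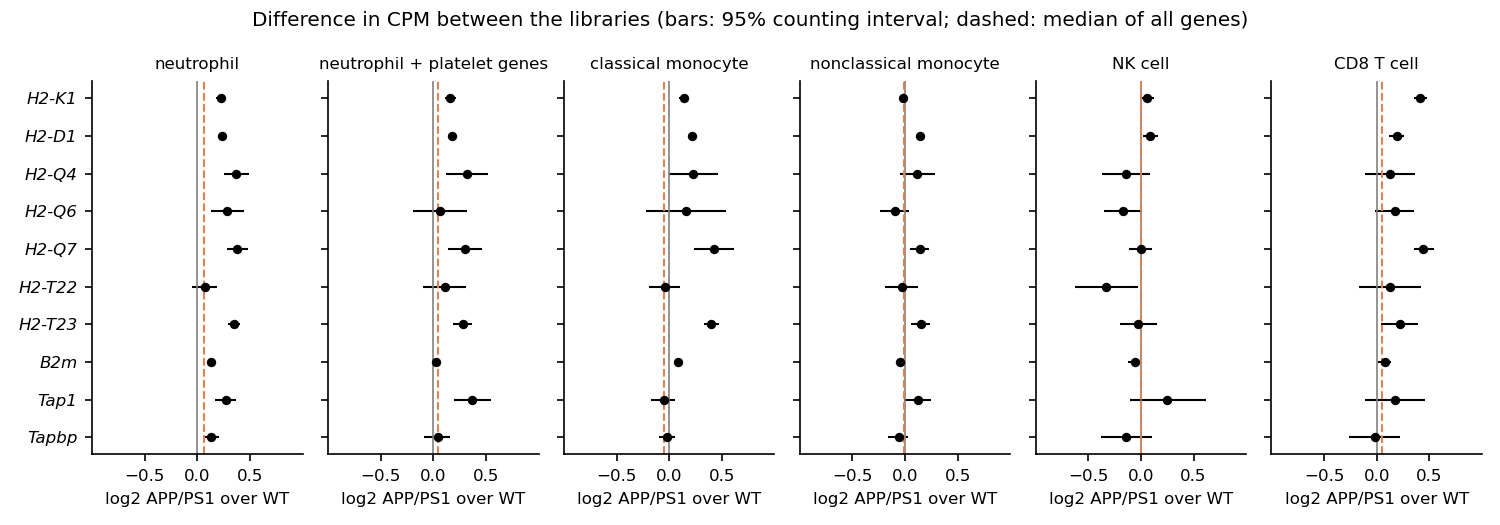
log2 ratio of APP/PS1 to WT CPM (horizontal axis) for each member in 6 cell types, with 95% counting intervals as bars, a solid line at 0 and a dashed line at the median of all genes of that type. All 10 points lie above 0 in neutrophils (H2-T22 falls to -0.02 with thinned cells), while those of NK cells lie on both sides.

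Other genes of the pathway were read from lists set beside the members. Of the 5 genes of the immunoproteasome, which cuts the peptides, and of its activator, 4 were at least 0.25 higher in APP/PS1 neutrophils. The share over all genes was 20.4%. Psmb8 went from 182 to 239 CPM (log2 0.39, 0.32 to 0.46). Psmb9 (0.34), Psmb10 (0.38) and Psme2 (0.37) differed by like amounts and Psme1 by 0.16. Of the 8 peptide loading genes, which include Tap1 and Tapbp, 3 were at least 0.25 higher, the others being Tap2 (0.35), the partner chain of Tap1, and Tapbpl (0.38). Calr, Canx and Pdia3, general chaperones of the endoplasmic reticulum, differed by 0.15, 0.09 and 0.14. Of the 7 regulators, Nlrc5, the class I transactivator, had 6.94 and 11.4 CPM (0.72, 0.39 to 1.05). Irf1 was level at 177 and 175 CPM. The receptor genes listed beside class I did not share the direction: Pirb differed by 0.04, Lilrb4a by -0.04 and Lilr4b by -0.13, and none of the 5 with enough UMIs reached 0.25. All 18 interferon score genes with enough UMIs were higher in the APP/PS1 library (median 0.42), as were 60.3% of all genes (median 0.06).

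H2-Q10, a heavy chain gene that is no member, stood apart from the family. It is known for its secreted product from the liver. It had 710 CPM in WT neutrophils (11667 UMIs), near the 688 CPM of H2-K1, and 14.1 CPM in classical and 18.4 CPM in nonclassical monocytes, and no 100-base window of its transcript ends was found in another gene. In APP/PS1 neutrophils it had 667 CPM (log2 -0.09, -0.13 to -0.05), the opposite direction to the members. Of the listed other heavy chain genes, 3 had enough UMIs in neutrophils and 2 were above 0, H2-T24 among them (0.41). Of 5 class I-like genes outside the H2 region, 2 had enough UMIs, and both were at least 0.25 lower (median -0.72). Among all genes 12.0% were that much lower. With H2-Q10 counted beside the 7 heavy chain members, H2-D1 gave 61.2% and 62.6% of their UMIs in neutrophils.

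The 6 neutrophil clusters held the members at different levels and took different shares of the 2 libraries. Cluster 2, led by Retnlg and Ly6g, had the lowest summed level of the large clusters (5552 and 6065 CPM) and held 39.7% of the WT and 18.5% of the APP/PS1 neutrophils. Clusters 5 and 6, led by the interferon genes Rsad2 and Isg15 and by Ifit3 and Ifit1, had 6589 and 7699 CPM and 7026 and 7980 CPM, and held 12.1% and 11.0% of the WT cells, against 19.5% and 17.5% of those from APP/PS1 mice. Cluster 17, led by the granule genes Camp, Ngp and Ltf of immature neutrophils, had 3727 and 3581 CPM. Its H2-D1 level was 1526 and 1533 CPM, below every other neutrophil cluster. Its cells were deep, with a median of 6420 UMIs, and counted per cell it was not the lowest. It had 9.69 and 10.1 UMIs of H2-D1 per cell. Cluster 0 had 7.19 and 8.84, cluster 6 had 9.46 and 12.5, and cluster 10 had 15.3 and 21.2.

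Within clusters the summed members differed between libraries by 0.10 to 0.24 on the log2 scale in clusters 0, 2, 5, 6 and 10, each with an interval above 0. In cluster 17 the difference was -0.06 (-0.13 to 0.01) over 100 WT and 188 APP/PS1 cells. Giving APP/PS1 neutrophils the cluster shares of WT, a comparison added after the data were seen, lowered the difference of the sum from 0.21 to 0.16. It lowered Tap1 most, from 0.27 to 0.09, and B2m from 0.13 to 0.04, while H2-D1 went from 0.23 to 0.21 and H2-Q7 from 0.38 to 0.31.

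Members were then read against interferon activity cell by cell. Each neutrophil was thinned to 1000 UMIs and binned by its UMIs of 19 interferon-stimulated genes, none of them a member. The bin with 8 or more such UMIs held 610 WT cells (10.7%) and 1127 APP/PS1 cells (17.1%), and the bin with 0 held 1024 and 1012.

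H2-T23 had 165, 247, 279, 343 and 418 CPM from the lowest to the highest bin in WT, and 235, 268, 317, 418 and 535 CPM in APP/PS1. It was higher at each step in both libraries, and log2 of the highest over the lowest bin was 1.34 (1.06 to 1.63) and 1.19 (0.97 to 1.41). Tap1 had 64.5 and 156 CPM at the ends in WT and 60.3 and 170 CPM in APP/PS1, log2 1.28 (0.81 to 1.75) and 1.50 (1.07 to 1.94). H2-T22 differed by 0.92 (0.36 to 1.48) and 1.49 (0.95 to 2.05), on 54 and 60 UMIs in the end bins of WT. Tapbp differed by 0.56 and 0.52.

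The classical heavy chain genes differed less. H2-D1 went from 2940 to 3372 CPM in WT (log2 0.20, 0.12 to 0.28) and from 3343 to 3917 CPM in APP/PS1 (0.23, 0.16 to 0.29). B2m differed by 0.39 and 0.46 and H2-K1 by 0.39 and 0.31. H2-Q4 and H2-Q7 differed by 0.88 and 0.54 in APP/PS1 and by 0.33 and -0.04 in WT, where both intervals held 0, and the difference between libraries was not tested. In all, 4 of the 10 members in WT and 6 of 10 in APP/PS1 were at least 0.5 higher in the top bin, against 7.79% of 3095 and 9.09% of 3706 genes. S100a9 went the other way across the bins, from 98372 to 77588 CPM in WT and from 88141 to 64549 CPM in APP/PS1, and its part in the CPM of other genes was not tested.

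**Figure D4:**
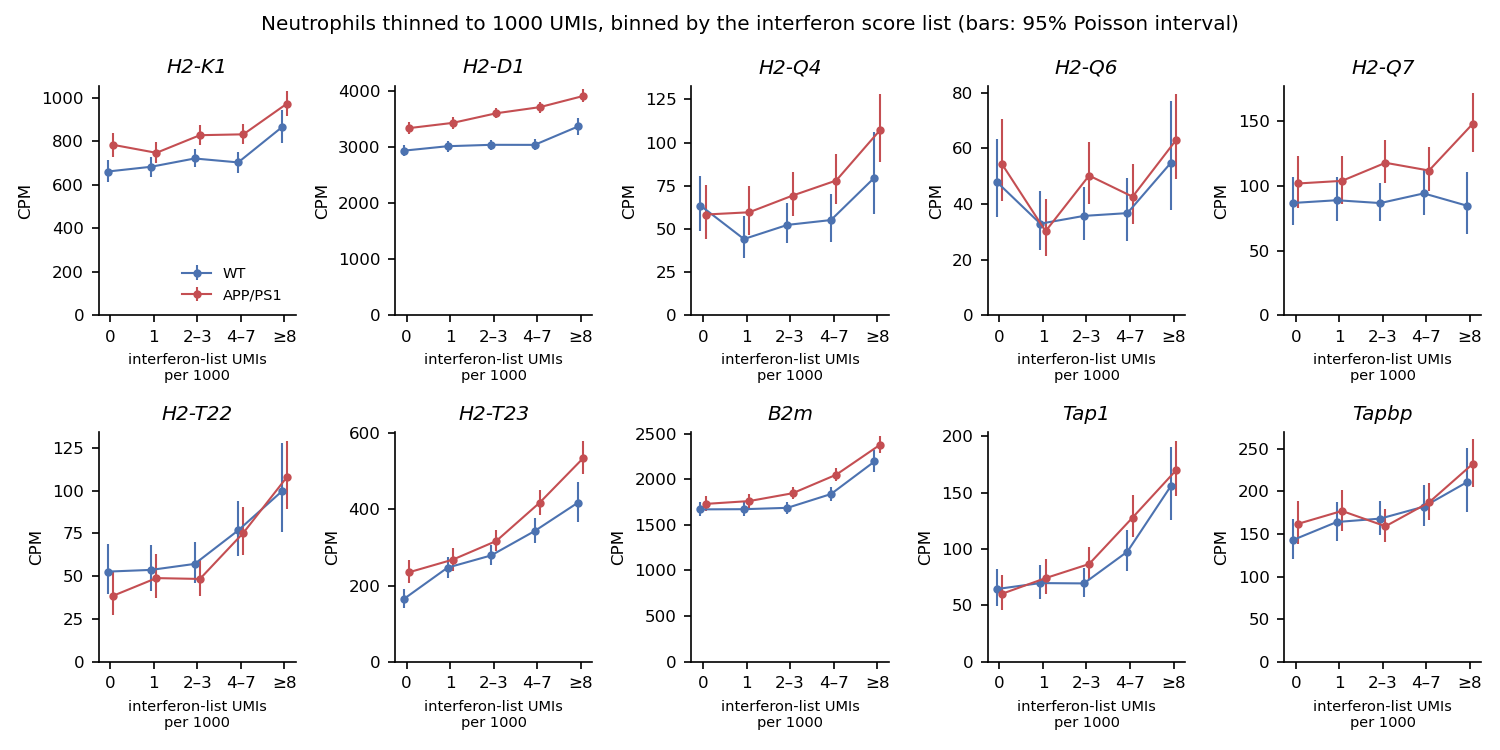
CPM of each member (vertical axis, from 0) in neutrophils thinned to 1000 UMIs, by the number of interferon list UMIs in the cell (horizontal axis), for the WT and APP/PS1 libraries with 95% Poisson intervals. From the lowest to the highest bin H2-T23, Tap1 and H2-T22 climb most, while H2-D1 and H2-K1 climb less. H2-D1, H2-K1, H2-T23, H2-Q7 and B2m lie higher in APP/PS1 in every bin.

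The difference between libraries was also there among cells of the same interferon bin. A score of so few UMIs sorts cells only roughly, and the mean score in the top bin was 12.5 in WT and 13.4 in APP/PS1. The part of interferon in the difference between libraries was not tested. The summed members were higher in APP/PS1 by 0.16, 0.14, 0.20, 0.24 and 0.20 on the log2 scale from the lowest to the highest bin, each with an interval above 0. H2-D1 differed by 0.19 (0.11 to 0.26) among cells with no interferon UMI and by 0.22 (0.14 to 0.29) in the top bin. Tap1 had -0.10 (-0.62 to 0.43) at 0 interferon UMIs, 0.09 (-0.35 to 0.53) at 1, 0.32 (-0.05 to 0.69) at 2 to 3, 0.40 (0.06 to 0.74) at 4 to 7 and 0.12 (-0.24 to 0.50) at 8 or more. Its interval lay above 0 in 1 of the 5 bins, and each Tap1 interval overlapped that of H2-D1 in the same bin. The Tap1 values rested on few UMIs, 61 and 189 in the lowest and highest bin of the APP/PS1 library.

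Outside neutrophils the difference between libraries varied by type. The neutrophils with platelet genes followed the neutrophils, with 10 of 10 members above 0 (57.0% of genes), 6 intervals above 0 (14.4%) and 4 members at least 0.25 higher (19.3%). The intervals of H2-Q6, H2-T22, B2m and Tapbp held 0 there. In classical monocytes H2-Q7 (0.43) and H2-T23 (0.40) were at least 0.25 higher, 2 members where 10.5% of genes were. There 5 intervals lay above 0 (8.60% of genes). The summed members differed by 0.14 in classical monocytes, 0.24 in CD8 T cells and 0.21 in neutrophils. Scaled by the median gene these became 0.19, 0.19 and 0.15. As UMIs per cell they were 0.04, 0.00 and 0.29. Of the classical monocytes, 84 cells formed a cluster led by Cxcl10 and Ifit2, with 534 and 684 CPM of H2-T23 against 266 and 343 CPM in the main cluster. In nonclassical monocytes 0 of the 10 members reached 0.25 (12.7% of genes did), and in NK cells Tap1 alone did, at 0.25 with an interval from -0.10 to 0.62 (18.1% of genes). In the MHC class II-high cells H2-Q6 (0.80) and H2-Q7 (0.68) passed 0.5, which 4.08% of genes did, and H2-Q6 rested on 63 and 74 UMIs.

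CD8 T cells showed H2-K1 at 1960 and 2610 CPM (log2 0.41) and H2-Q7 at 1037 and 1409 CPM (0.44), 2 members past 0.25 against 25.8% of genes. The APP/PS1 library held more of the Ccl5 cluster (389 cells against 209) and fewer of the Lef1 and Ccr7 cluster (62 against 111), and the Ccl5 cluster had the higher levels. Within the Ccl5 cluster H2-K1 differed by 0.28 and H2-Q7 by 0.23, and in the other by 0.32 and 0.33. Counted per cell, the summed members were equal in CD8 T cells (38.6 UMIs in both libraries), and APP/PS1 cells of this type had 3849 UMIs in all against 4556. In erythroid cells 7 of the 8 members with enough UMIs passed 0.5, but so did 45.4% of genes there. The summed members differed by 0.72 in erythroid cells, and by 0.30 with haemoglobin and other abundant genes left out of the total. The part of haemoglobin in this difference was not tested.

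Last, the members were set beside their neighbours on chromosome 17. Between the outermost members and 1 Mb beyond, 94 other genes had at least 50 UMIs in neutrophils. Of these 51 were higher in APP/PS1, where 60.3% of all genes in neutrophils were. Their median was 0.03, against 0.27 for the 9 members in the region. The highest neighbours were Gm17251 (0.65, on 33 and 63 UMIs), Ltb, a lymphotoxin gene (0.55), and Nrm (0.50). The lowest were the class II genes H2-DMb1 (-0.87, on 39 and 26 UMIs) and H2-Aa (-0.53, on 247 and 208). Ehmt2 (-0.49, on 82 and 71 UMIs) came next. Psmb8, Psmb9 and Tap2, which lie beside Tap1, were among the higher neighbours.

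**Figure D5:**
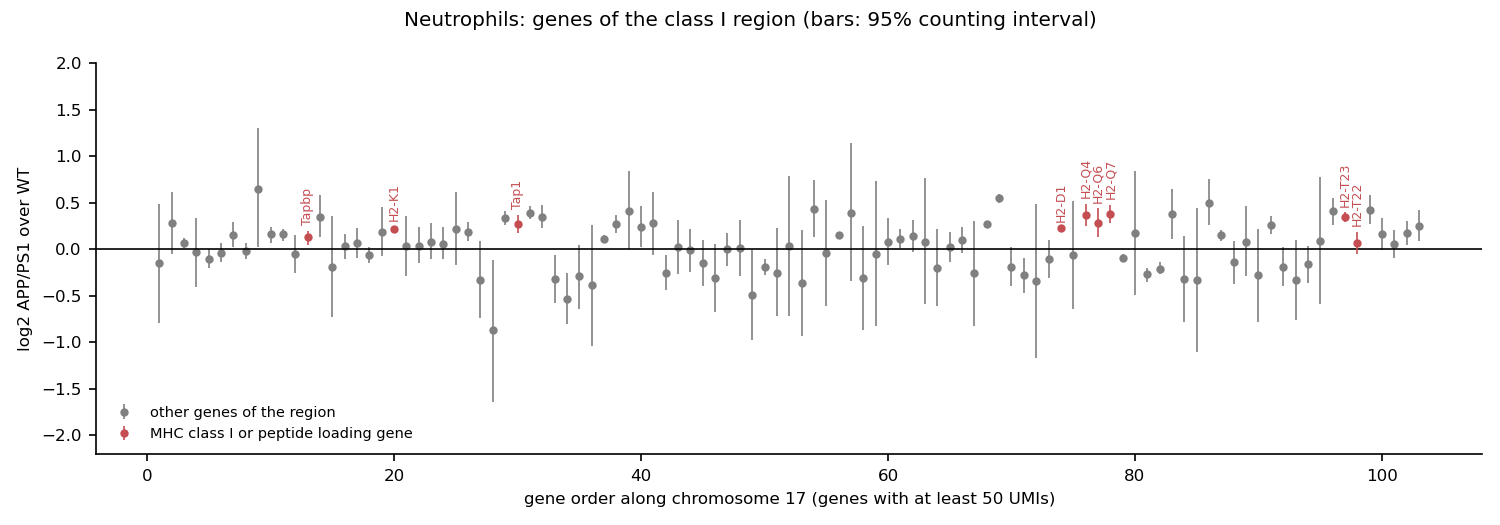
log2 ratio of APP/PS1 to WT CPM in neutrophils (vertical axis) for genes of the class I region in their order along chromosome 17 (horizontal axis), with 95% counting intervals. The 9 members, labelled, lie above 0 (H2-T22 with an interval that holds 0), among neighbours on both sides of it.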

How the data were processed

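Blood neutrophil preparations were sequenced as 2 single-cell 3′ libraries (10x Genomics), 1 per genotype. What the authors deposited are raw UMI counts for each gene in each barcode, made with Cell Ranger 5.0.0 on mm10 per the labels, without normalization. Members and gene lists were chosen with earlier results of these data known. Cells between the 5th and 95th percentile of genes and UMIs of their library and with at most 10% mitochondrial UMIs were kept, as in the study. Cells were clustered (scikit-learn 1.9.0, leidenalg 0.10.2; 2000 variable features without member and class I pathway genes, 15 principal components, resolution 1.0) and named by marker lists, with thresholds and the platelet and epithelial exclusions set after the clusters were seen. Scrublet's automatic threshold called 1548 cells in WT and 0 in APP/PS1, so doublets were kept. UMIs were summed per type and library. Ratios carry exact conditional intervals, levels exact Poisson intervals. Genes named are all members, some of the list genes with at least 50 UMIs, for each member the genes most alike (1 of 3 is given), and the 3 highest and 3 lowest neighbours. H2-Q10 was singled out after its values were seen. A list gene is not reported here. The interval code was tested on simulated data. The alternatives included edgeR 4.0.16 TMM scaling. Coordinates are from GENCODE M21 (32235 of 32285 gene IDs matched).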

Additional observations from a re-analysis of the deposited data

Results flagged for a closer look

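With 1 library per genotype, no group held enough samples for a check of samples that stand apart. Among members with at least 50 UMIs in the type, there were 4 cases in which the counting interval lay below 0 in another cell type while it lay above 0 in neutrophils. They are B2m in nonclassical monocytes (log2 APP/PS1 over WT -0.05) and in basophils (-0.30) against 0.13 in neutrophils, H2-K1 in gamma-delta or innate-like T cells (-0.26) against 0.22, and H2-Q6 in B cells (-0.36) against 0.28. The difference between cell types was not tested, and the intervals cover counting error only.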

How the results depend on the processing

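No paired analysis was possible because each genotype had 1 library. In neutrophils the summed members differed by 0.21 on the log2 scale, and by 0.15 with TMM scaling, 0.15 with the median log2 ratio subtracted, 0.16 with S100a8, S100a9, haemoglobin, immunoglobulin, mitochondrial and ribosomal protein genes left out of the total, 0.29 as UMIs per cell, 0.19 with the neutrophils that carry platelet genes added and 0.16 with the WT cluster shares, the last 2 chosen after seeing the data. The count of members at least 0.25 higher went from 5 to 3 under each of TMM scaling, the subtracted median and the reduced total, and to 1 with the WT cluster shares. The cause was not tested. Alternatives to the differences between libraries covered the sum in each type, and single members in neutrophils only. Among the results covered, no called value changed sign. Single members of other types were not covered. In CD8 T cells, for example, H2-D1 differed by 0.19 by CPM but had 8.84 (WT) and 8.53 (APP/PS1) UMIs per cell. From the lowest to the highest interferon bin the difference of the summed members was 0.35 (WT) and 0.39 (APP/PS1), or 0.42 and 0.48 where all UMIs gave the score. Over all genes in neutrophils, 578 were at least 0.5 higher and 391 lower. With 1 UMI in each library as the minimum these became 2111 and 1650, with 200 UMIs 222 and 178, and at a size of 0.25 1810 and 1061. The median of the chromosome 17 neighbours was 0.03, and 0.08 over those with 200 UMIs. Of 366 alternative values, 290 stayed within the interval of the reported value or, for counts, within 1.5 times of it. With 1 library per genotype, depth narrows the counting intervals but not the spread between mice, which stayed unmeasured.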
